A study of Mus musculus with 6 samples.

Results

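Myeloid transcription factors and growth factor receptors were examined in leukaemic mouse B cells with and without gamma-catenin. The set holds 10 genes of 19938 with a probe set of their own: the factors Cebpa, Cebpb, Cebpd, Cebpe, Spi1, Gfi1 and Irf8 and the receptors Csf1r, Csf2ra and Csf3r. They were taken by name, and each was measured by exactly 1 probe set. None of the 10 passed the test between genotypes, and in none did the KO arrays separate from the WT arrays.

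The RNA came from bone marrow B cells sorted as GFP+ (BCR-ABL1+), B220+, BP-1+ and CD45.2+ at day 21 after transplantation, with 3 samples from Jup-/- donors (KO) and 3 from Jup+/+ donors (WT), all on the C57BL/6 background and each on 1 array. Jup encodes gamma-catenin, also called plakoglobin, a junction protein related to beta-catenin. Fetal liver cells of either genotype (CD45.2+) first reconstituted CD45.1+ mice, whose marrow was later infected with a retrovirus carrying BCR-ABL1 and GFP and given to lethally irradiated CD45.1+ recipients. All 6 samples therefore carry the BCR-ABL1 kinase and had passed through 2 hosts, and KO marrow lacked Jup in every donor-derived blood lineage, not in B cells alone.

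C/EBP proteins are leucine zipper factors of granulocytes and monocytes: C/EBP alpha, encoded by Cebpa, acts at the entry into the granulocyte and monocyte path, C/EBP epsilon late in granulocyte maturation, and C/EBP beta and delta in inflammatory and emergency responses. PU.1, encoded by Spi1, is an ETS factor needed by both myeloid and B cells, and its dose helps to set the choice between them. Gfi1, a zinc finger repressor, favours granulocytes, and Irf8 favours monocytes and dendritic cells and is also active in B cells. The receptors bind M-CSF (Csf1r), GM-CSF (Csf2ra, the alpha chain) and G-CSF (Csf3r). In B-lineage cells many of these genes are held low, with Spi1 and Irf8 among the known exceptions. Gfi1 and Csf2ra were above the array medians here as well.

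The check of the arrays came first. Jup was 7.04, 7.06 and 7.27 in KO and 8.04, 7.62 and 8.51 in WT, which is 0.93 lower in KO by the means (-0.93, SE 0.20; adjusted p of limma = 0.171) and without overlap between the genotypes. Array medians were 7.53 to 7.61 and any pair of arrays correlated at 0.991 to 0.996 across probe sets. B-lineage markers were bright in every array, with a mean of 11.90 to 12.07 in KO and 11.79 to 11.87 in WT over 14 measured genes. WT replicate 2 stood apart: Xist was 6.20 there and 13.03 to 13.38 in the other arrays, and the Y-linked gene Uty was 10.09 there and 4.96 to 5.54 elsewhere. The Y-linked genes Eif2s3y (8.90) and Kdm5d (8.57) were also highest there. By these genes WT replicate 2 held male cells and all other arrays, including every KO array, female cells. Sex was therefore not balanced between the genotypes, and its part in the differences was not tested. Values with WT replicate 2 left out stand beside those of the C/EBP genes, Csf3r and the granulocyte genes. The labels call the replicates biological without saying how they were kept apart, so the spread between them may be partly technical. Their sample codes share a number between same-numbered KO and WT samples, whose meaning the labels do not state.

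All values are RMA log2 values as deposited, and every difference is KO minus WT. Differences were tested with limma, adjusted by Benjamini-Hochberg over 21789 probe sets, with a threshold of 0.05. Of all probe sets 26 passed, or 0.119% (0.0505% higher and 0.0688% lower in KO), and of the 10 myeloid genes 0 passed. At an unadjusted p under 0.05 there was 1 of the 10, Csf3r, against 9.22% of all probe sets, a share near that background. The arrays of the genotypes did not overlap for 14% of all probe sets and for 0 of the 10 genes. The KO mean was the higher one for 8 of the 10 genes, where 44.2% of all probe sets had a higher KO mean, and the median difference was 0.14, against -0.02 over all probe sets. The 10 genes were chosen with earlier results of these data known. By array, their median deviation from the WT mean overlapped between the genotypes. It was 0.055, 0.197 and 0.108 in KO replicates 1, 2 and 3 and -0.117, 0.108 and -0.017 in the WT replicates. The 95% intervals of the 10 differences, not adjusted for their number, all lay between -0.32 and 0.73.

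**Figure D1:**
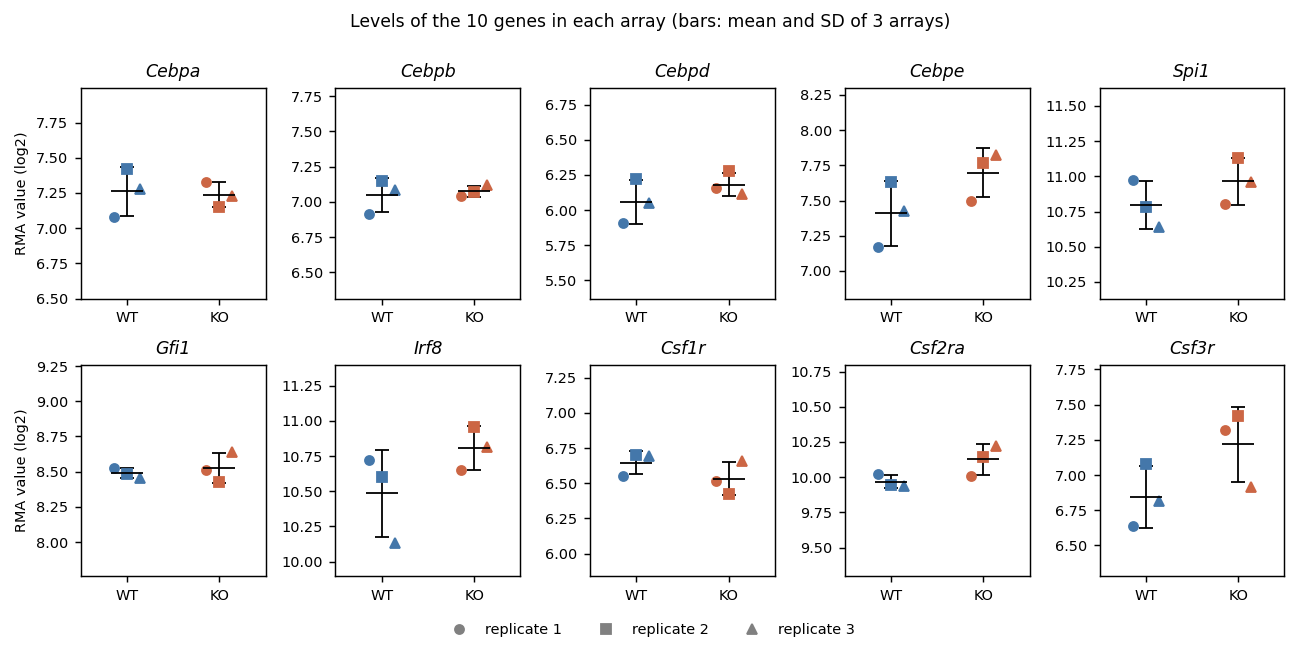
RMA log2 value of each of the 10 genes in 3 WT and 3 KO arrays; symbols mark replicates 1, 2 and 3, bars the mean and SD, and each panel spans the same range of log2 units around its own mean. The KO and WT points overlap in all 10 panels, and the spread is widest for Irf8 and Csf3r.

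The C/EBP family ranged from level genes, Cebpa and Cebpb, to Cebpe with a small difference, and no member passed. Cebpa, the gene of the factor at the entry into the granulocyte path, measured 7.33, 7.15 and 7.23 in KO replicates 1, 2 and 3 and 7.08, 7.42 and 7.28 in the WT arrays. All 3 KO values lay inside the WT range. Means were 7.24 ± 0.09 in KO and 7.26 ± 0.17 in WT (SD, n = 3 each), a difference of -0.02 (SE 0.10, 95% interval -0.26 to 0.21, limma adjusted p = 0.974). Its sign was not stable: the difference was 0.06 without WT replicate 2, -0.115 without WT replicate 1 and -0.120 with array weights. The weights, the same for all genes, were lowest for WT replicate 1 (0.34) and highest for WT replicate 2 (2.12). Weighted values therefore partly repeat the fit without WT replicate 1.

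Cebpb, which serves inflammatory and emergency granulocyte production, was just as flat. It measured 7.04, 7.07 and 7.12 in KO and 6.91, 7.15 and 7.08 in WT. The difference was 0.03 (SE 0.08, 95% interval -0.17 to 0.22, limma adjusted p = 0.966), and it was -0.0421 without WT replicate 1, 0.0771 without WT replicate 2 and -0.0303 with array weights. Cebpd, another factor of the inflammatory response, measured 6.16, 6.27 and 6.11 in KO and 5.91, 6.22 and 6.05 in WT, again with overlap. Its difference was 0.12 (SE 0.10, limma adjusted p = 0.792). It was 0.0448 without WT replicate 1, 0.0747 without KO replicate 2, 0.202 without WT replicate 2 and 0.0403 with array weights.

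Cebpe, the factor of late granulocyte maturation and a regulator of secondary granule genes, had the largest difference in the family. It measured 7.50, 7.77 and 7.82 in KO and 7.17, 7.63 and 7.43 in WT. KO replicates 2 and 3 were above every WT array, and KO replicate 1 was below WT replicate 2. Means were 7.70 ± 0.17 in KO and 7.41 ± 0.23 in WT (SD, n = 3 each), a difference of 0.29 or 1.22-fold, which did not pass (SE 0.13, 95% interval -0.02 to 0.59, limma unadjusted p = 0.0614, adjusted p = 0.578). Single arrays moved it in both directions: it was 0.169 without WT replicate 1 (unadjusted p = 0.199 in limma) and 0.398 without WT replicate 2 (unadjusted p = 0.0170, limma adjusted p = 0.549), and 0.188 with array weights.

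Spi1, the gene of PU.1, was bright in all arrays. It measured 10.80, 11.13 and 10.96 in KO and 10.98, 10.78 and 10.64 in WT. The lowest KO array and the highest WT array, both replicate 1, crossed over. The difference was 0.17 (SE 0.12, 95% interval -0.10 to 0.43, limma adjusted p = 0.745). Leaving out WT replicate 1 raised it to 0.255, and it was 0.0826 without KO replicate 2 and 0.0868 when WT replicate 3 was omitted.

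Irf8, the interferon regulatory factor of monocytes, dendritic cells and B cells, was bright as well and varied more. It measured 10.65, 10.96 and 10.82 in KO and 10.72, 10.60 and 10.14 in WT. WT replicate 3 was far below the other WT arrays, and WT replicate 1 was above KO replicate 1. Means were 10.81 ± 0.15 in KO and 10.48 ± 0.31 in WT (SD, n = 3 each), a difference of 0.32 or 1.25-fold (SE 0.15, 95% interval -0.03 to 0.67, limma adjusted p = 0.588). The difference was 0.148 without WT replicate 3 and 0.440 without WT replicate 1.

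Gfi1, the repressor that favours granulocytes over monocytes, hardly varied. It measured 8.51, 8.43 and 8.64 in KO and 8.53, 8.48 and 8.45 in WT, and the 3 WT values lay within the KO range. The difference was 0.04 (SE 0.08, 95% interval -0.15 to 0.22, limma adjusted p = 0.949), with the opposite sign without KO replicate 3. Its within-group SD of 0.08 was below the median of 0.12 over all probe sets, while those of Irf8 (0.24), Csf3r (0.25) and Cebpe (0.20) were well above it.

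**Figure D2:**
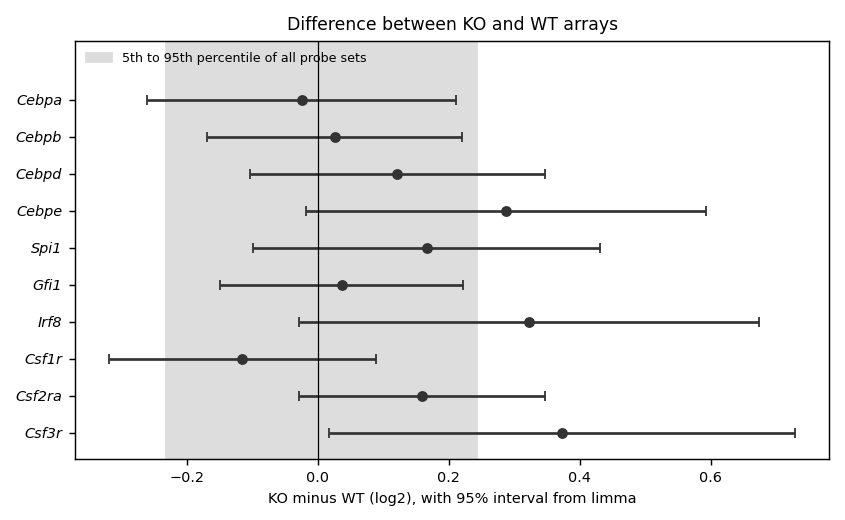
KO minus WT difference of each gene on the log2 scale (points) with its 95% interval from limma (bars); the grey band runs from the 5th to the 95th percentile of the differences of all 21789 probe sets (-0.23 to 0.24). Cebpe, Irf8 and Csf3r lie to the right of the band, and the interval of Csf3r alone leaves out 0.

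Among the receptors, Csf3r, which binds G-CSF and drives neutrophil production, had the largest difference of the 10 genes. It measured 7.32, 7.42 and 6.91 in KO and 6.64, 7.08 and 6.82 in WT. KO replicates 1 and 2 were above every WT array, whereas KO replicate 3 was below WT replicate 2. Means were 7.22 ± 0.27 in KO and 6.84 ± 0.22 in WT (SD, n = 3 each), a difference of 0.37 or 1.30-fold (SE 0.16, 95% interval 0.02 to 0.73, limma unadjusted p = 0.0417). With adjustment over the whole table it missed the threshold (limma adjusted p = 0.518), at rank 1748 by p. It was 0.269 without WT replicate 1 and 0.273 without KO replicate 2, against 0.491 without WT replicate 2 and 0.526 without KO replicate 3, and 0.243 with array weights.

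Csf2ra, the ligand-binding chain of the GM-CSF receptor, was bright and steady. It measured 10.01, 10.15 and 10.22 in KO and 10.02, 9.94 and 9.94 in WT. KO replicates 2 and 3 were above every WT array, and KO replicate 1 was just below WT replicate 1. The difference was 0.16 (SE 0.08, 95% interval -0.03 to 0.35, limma adjusted p = 0.629).

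Csf1r, the M-CSF receptor of monocytes and macrophages, had the lowest difference of the set. It measured 6.52, 6.42 and 6.66 in KO and 6.55, 6.70 and 6.69 in WT, and KO replicate 3 was above WT replicate 1. The difference was -0.11 (SE 0.09, 95% interval -0.32 to 0.09, limma adjusted p = 0.779), and -0.0599 to -0.177 with single arrays left out (KO replicates 2 and 3).

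Probe sets differ in brightness for reasons other than the amount of RNA, so the 10 genes cannot be ranked by level. As a rough guide to which of them were dim, 1210 probe sets of olfactory and vomeronasal receptors, whose genes are not known for activity in marrow, had a median of 4.81 and a 95th percentile of 6.66. The means over all arrays of Cebpd (6.12) and Csf1r (6.59) lay under that percentile, where a change in RNA would be compressed by the background. Csf3r (7.03), Cebpb (7.06), Cebpa (7.25) and Cebpe (7.55) were above it and still at or below the array medians. Gfi1 (8.51), Csf2ra (10.05), Irf8 (10.65) and Spi1 (10.88) were above the array medians.

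Within WT the 10 genes fell into a pair of patterns. Cebpa, Cebpb, Cebpd, Cebpe, Csf1r and Csf3r were lowest in replicate 1 and highest in replicate 2. Spi1, Gfi1, Irf8 and Csf2ra were highest in replicate 1 and lowest in replicate 3. With each array centred on its median, WT replicate 3 became the highest for Csf1r and replicate 2 the lowest for Csf2ra, and the other 8 kept their order. The WT range reached 0.58 for Irf8, 0.46 for Cebpe and 0.44 for Csf3r, each larger than the KO minus WT difference of the same gene. In KO, Spi1 and Irf8 were both lowest in replicate 1 and highest in replicate 2, while Cebpe, Cebpb and Csf2ra were lowest in replicate 1 and highest in replicate 3.

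**Figure D3:**
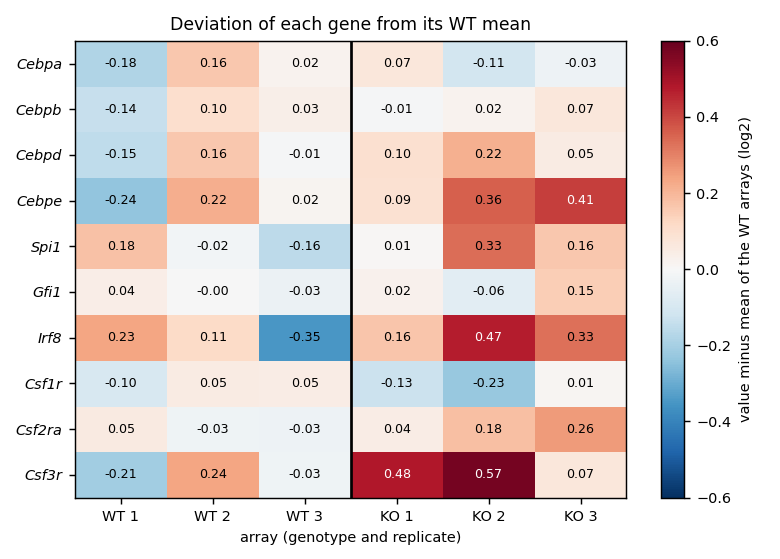
Each gene's value in each array minus its mean over the 3 WT arrays, in log2 units (red higher, blue lower). The 4 C/EBP genes and Csf3r are lowest among the WT arrays in WT 1 and highest in WT 2, whereas Irf8 is lowest in WT 3, at -0.35, and highest in KO 2, at 0.47.

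Several lists of cell markers had the same orders of arrays, and 3 arrays allow so few orders that matches are common. As deposited, the erythroid list and the mast cell, basophil and eosinophil list had WT orders that none of the 10 genes had. The mean of 28 measured granulocyte genes was 7.86, 8.29 and 7.96 in WT replicates 1, 2 and 3. This WT order was also that of the C/EBP genes, Csf3r and, as deposited, Csf1r. In KO the mean was 8.58, 8.57 and 8.63, an order that none of the C/EBP genes or Csf3r had. Csf1r and Gfi1 did have that KO order, so Csf1r as deposited matched the granulocyte list in both genotypes. With arrays centred on their median, its WT order no longer matched. The T and NK list, at 6.14, 6.41 and 6.22 in WT, shared the WT order of the granulocyte list. The mean of the 14 B-lineage markers was 11.87, 11.81 and 11.79 in WT and 11.90, 12.07 and 12.01 in KO, and the order in both genotypes was that of Spi1 and Irf8. The monocyte and dendritic list had these orders as well, within 6.92 to 6.98 over all arrays, although its KO order changed with arrays centred on their median. The part of any of these marker lists in the values of the 10 genes was not tested. In sorted bulk RNA, more cells of a type and more RNA per cell cannot be told apart.

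The granulocyte genes, many of them known targets of C/EBP factors and PU.1, had larger differences than the factors. This list was chosen with earlier results of these data known, so its counts describe the list and are no test of it. Of 28 measured, 3 rose (Mpo, Elane and Ctsg, which encode the peroxidase and serine proteases of primary granules) and 0 fell in limma over all probe sets, against 0.0505% and 0.0688% of all probe sets. A further view by unadjusted p under 0.05 gave 21 higher and 1 lower, against 4.48% and 4.73% of all probe sets, with 19 higher and 2 lower without overlap (5.94% and 8.08%). Mpo averaged 9.19 in KO and 7.59 in WT, Elane 9.07 and 7.83, and Ctsg 7.84 and 6.71. The list's median difference was 0.53, against 0.12 for the 7 factors and 0.16 for the 3 receptors, and this gap between lists was not tested. The summed log2 level of the list was 239.98 to 241.56 in KO and 220.13 to 232.22 in WT. Anxa1, annexin A1, gave -0.50 (SE 0.16) and Ncf4, a subunit of the phagocyte oxidase, -0.15 (SE 0.08); neither passed (limma adjusted p = 0.379 and 0.637). Among WT arrays the mean of the list was highest in replicate 2, but this did not hold for the 3 genes that passed. Mpo (7.76) and Elane (8.06) were highest in WT replicate 3 and Ctsg (6.76) in WT replicate 1. Without WT replicate 2, 6 granulocyte genes rose and still 0 of the 10 factors and receptors passed. With KO replicate 3, WT replicate 1 or WT replicate 3 left out, 1 granulocyte gene rose in each case.

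**Figure D4:**
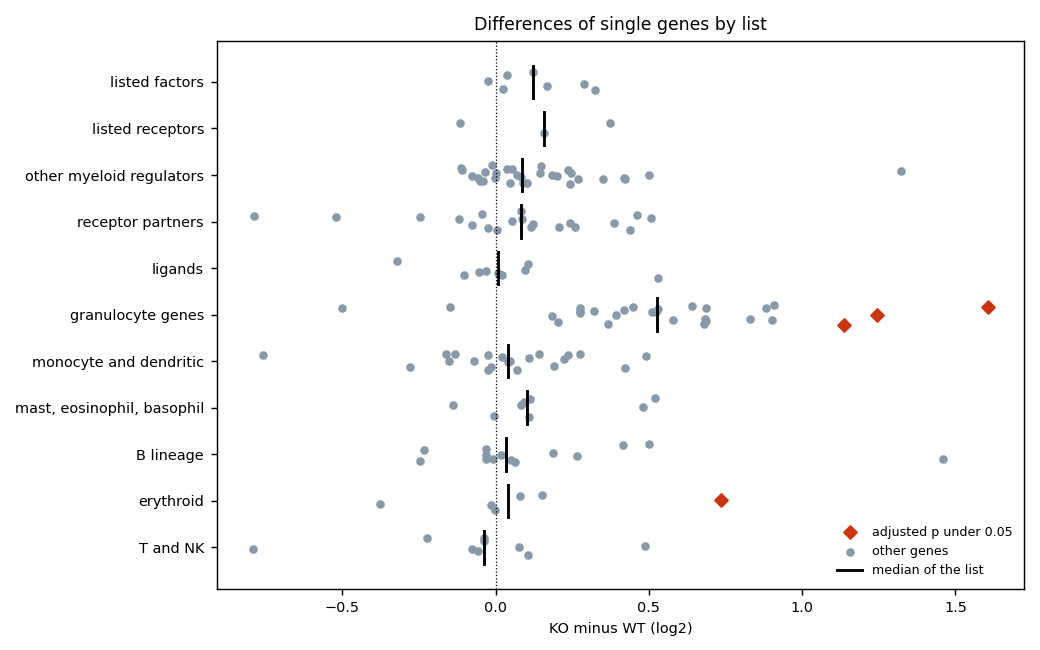
KO minus WT difference of every measured gene (points, log2 units) in 11 lists, with the list's median as a black bar and genes past a limma adjusted p of 0.05 as red diamonds. The granulocyte list is shifted to the right, with a median of 0.53 and 3 genes past the threshold, while the listed factors and receptors lie between -0.11 and 0.37 with none past it. All lists were chosen with earlier results of these data known.

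Monocyte, macrophage and dendritic cell markers, which go with Irf8 and Csf1r, went both ways. Of 21 measured, 0 passed in limma, with a median of 0.04 and a summed level of 146.23 to 146.56 in KO and 145.25 to 146.10 in WT; 5 were higher and 2 lower at an unadjusted p under 0.05, where 4.48% and 4.73% of all probe sets were. F13a1, the coagulation factor XIII A chain of monocytes, gave 0.49 (SE 0.08, limma adjusted p = 0.0869) and Ms4a6c 0.42 (SE 0.13), whereas the lectin receptor gene Clec4a3 gave -0.76 (SE 0.22) and Adgre4, an adhesion receptor gene of myeloid cells, -0.28 (SE 0.10). Mast cell, basophil and eosinophil markers had a median of 0.10 over 8 genes, 0 of which passed in limma, with 2 higher and 0 lower at an unadjusted p under 0.05; their summed level was 47.75 to 48.47 in KO and 46.38 to 47.29 in WT. Cpa3, the mast cell carboxypeptidase, gave 0.48 (SE 0.15) and Mcpt8, a basophil protease gene, 0.52 (SE 0.22), while the eosinophil granule genes Prg2 and Prg3 gave -0.0048 and -0.14. T and NK markers had a median of -0.04 over 9 genes, 0 of which passed in limma (1 higher and 2 lower at an unadjusted p under 0.05), with Nkg7 at 0.49, Cd3d at 0.08, Cd8a at -0.22 and Klrb1c at -0.79. Erythroid markers had a median of 0.04 over 6 genes, with 1 that rose, Car1 (0.74, SE 0.09, limma adjusted p = 0.0307), where 0.0505% of all probe sets rose. At an unadjusted p under 0.05 in limma, 1 was higher (Car1) and 1 lower (Car2). Slc4a1 was at 0.15, Epb42 at -0.01 and Car2 at -0.38. B-lineage markers had a median of 0.03 over 14 genes, 0 of which passed in limma (3 higher and 1 lower at an unadjusted p under 0.05), with Cd72 at 1.46, Rag2 at 0.42, Enpep (BP-1) at -0.23 and Dntt at -0.25. The shares of all probe sets, 4.48% higher and 4.73% lower, stand beside the unadjusted counts of each of these lists. Some of the named markers were dim. The means over all arrays of Adgre4 (4.54), Epb42 (5.76), Cd3d (5.94), Cpa3 (6.21) and Prg2 (6.45) lay under 6.66, the 95th percentile of the olfactory and vomeronasal receptors.

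Other regulators of myeloid development were read from a further list. Of 30 measured, 0 passed in limma; 6 were higher and 0 lower at an unadjusted p under 0.05, against 4.48% and 4.73% of all probe sets, and the median was 0.09. Rara, the retinoic acid receptor that acts in granulocyte differentiation, measured 9.26 ± 0.01 (SD, n = 3) in KO and 8.76 ± 0.14 (SD, n = 3) in WT, a difference of 0.50 (SE 0.09, limma adjusted p = 0.106) with no overlap. Egr1, a zinc finger factor of monocyte differentiation and an immediate-early gene, gave 0.42 (SE 0.10, limma adjusted p = 0.230), also with no overlap. Tal1 and Gata2, factors of blood progenitors, gave -0.11 each.

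Partner subunits, related receptors and signalling genes of the 3 receptors went both ways. Of 20 measured, 0 passed in limma, with 5 higher and 3 lower at an unadjusted p under 0.05, against 4.48% and 4.73% of all probe sets, and a median of 0.08. Csf2rb, the shared beta chain that pairs with Csf2ra, measured 11.27, 11.34 and 11.25 in KO and 11.25, 10.88 and 11.00 in WT, a difference of 0.24 (SE 0.10, limma adjusted p = 0.529). Its close copy Csf2rb2, the beta chain for interleukin 3, gave 0.44 (SE 0.14, limma adjusted p = 0.382); the pair is similar in sequence and probes may read both, and both are named after their values were seen. Tyrobp, the adaptor DAP12 of myeloid cells, gave 0.46 (SE 0.10, limma adjusted p = 0.195) and Il6ra, the interleukin 6 receptor, 0.39 (SE 0.10, limma adjusted p = 0.280), both without overlap. Cish and Socs3, feedback inhibitors of cytokine receptors that include the G-CSF receptor for Socs3, gave -0.52 (SE 0.11, limma adjusted p = 0.166) and -0.79 (SE 0.17, limma adjusted p = 0.178), the KO arrays lying below all WT arrays.

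Of 9 genes of growth factor ligands 0 passed, against 0.119% of all probe sets, and the median was 0.01. At an unadjusted p under 0.05 in limma 1 was higher and 0 were lower, against 4.48% and 4.73% of all probe sets. Flt3l, the FLT3 ligand, gave 0.53 (SE 0.09, limma adjusted p = 0.110) without overlap. Csf1, which encodes M-CSF, the ligand of Csf1r, gave -0.32 (SE 0.18, limma adjusted p = 0.660). Il3 (4.67 in KO, 4.56 in WT) and Il5 (5.13 and 5.23) gave 0.11 and -0.10, in the range of the dim reference probe sets.

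The sequences before the receptor genes are shown because PU.1 and C/EBP factors are known to act on receptor promoters of this kind, and the table of RefSeq promoters (GRCm38.p6) held Csf3r and Csf2ra. It matched 6 of the 10 genes, Cebpa, Cebpb, Gfi1, Irf8, Csf2ra and Csf3r, with 8 windows of 250 bases before to 50 after a start; Cebpd, Cebpe, Spi1 and Csf1r had no match. Below are the 250 bases before 1 annotated start of each receptor gene, 5′ to 3′ on the gene's strand, with matches to the PU.1-type motif GAGGAAG in capitals.
Csf3r (chr4:126024409-126024658, + strand): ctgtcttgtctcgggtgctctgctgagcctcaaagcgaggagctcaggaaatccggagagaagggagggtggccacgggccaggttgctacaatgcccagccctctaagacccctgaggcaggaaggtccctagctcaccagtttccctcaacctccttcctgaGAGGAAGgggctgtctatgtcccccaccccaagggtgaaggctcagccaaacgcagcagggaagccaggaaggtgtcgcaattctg
Csf2ra (chr19:61228419-61228668, - strand): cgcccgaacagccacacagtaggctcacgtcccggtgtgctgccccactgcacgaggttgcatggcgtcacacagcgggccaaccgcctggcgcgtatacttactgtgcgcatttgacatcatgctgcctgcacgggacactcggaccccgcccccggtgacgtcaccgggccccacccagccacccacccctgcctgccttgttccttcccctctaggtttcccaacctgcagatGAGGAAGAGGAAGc

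Both strands were searched for 3 motifs. The PU.1-type motif GAGGAAG was found in 2 of the 8 windows, those of Csf3r and Csf2ra, and 13.6% of 32851 windows in the table hold it. In Csf3r it starts 86 bases before the annotated start, and in Csf2ra a pair of matches that share 1 base start 14 and 8 bases before it. The C/EBP-type motif TTNNGCAA was found in 1 of the 8, a Gfi1 window, where 10.8% of all windows hold it, and the RUNX-type motif TGTGGT in 0, where 16.8% do. A match describes letters and is no evidence of binding, and no match says only that these letters are not in the window. The differences of both receptors, 0.37 and 0.16, failed the test.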

How the data were processed

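Per the labels' protocols, RNA of sorted leukaemia cells from 3 KO and 3 WT samples was amplified, biotin-labelled and put on whole-transcript Affymetrix arrays of 1 colour. The table the authors deposited holds log2 values; the submitters' processing notes name RMA and Affymetrix Expression Console 1.1. The options and annotation are not given in the sources used here. RMA in its usual form equalises the arrays and compresses changes of dim transcripts. Of 35556 rows the platform annotation lists 23410, 1621 of them with several symbols; the 21789 with 1 symbol were tested.

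The genotypes were set against each other in limma 3.58.1 (R 4.3.3) by lmFit and eBayes, with no covariate and no filter. Intervals are moderated ones. The fit was tested on data simulated with independent normal noise, in 20 runs with 200 changed probe sets each. It recovered 86.6% of changes of 1 log2 unit and 40% of changes of 0.5, and 4.2% of the calls were false. The largest difference of the 10 genes was 0.37, so a failure to pass does not show that a gene was unchanged. Each gene entered by its brightest probe set. The members and the 169 entries of the gene lists were chosen with earlier results of these data known. Genes named from lists are those past the threshold and the 2 highest and 2 lowest by moderated t; profile neighbours were to be named for members spanning over 1 log2 unit, which none did. Alternatives were other filters, rows, priors, weights, scalings, the replicate block and each array left out. Depth does not apply to arrays; their number limits precision.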

Additional observations from a re-analysis of the deposited data

How the results depend on the processing

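The count of 0 members past the threshold held under 14 alternatives, and the filter on dim probe sets, which removed Cebpd and Csf1r, gave 0 among the other 8. Their median difference moved between 0.0844 and 0.175 with single arrays left out and between 0.118 and 0.145 otherwise. Signs turned for Cebpa without KO replicate 2 (0.0187) or WT replicate 2 (0.0566), with a range of -0.115 to 0.0566 over arrays left out; for Cebpb with array weights (-0.0303) and without WT replicate 1, with a range of -0.0421 to 0.0771; and for Gfi1 without KO replicate 3, with a range of -0.0190 to 0.0862. The other 7 kept their sign throughout. Csf3r had an unadjusted p under 0.05 in 9 of 15 alternatives, and its limma adjusted p was 0.375 to 0.9997. Over all probe sets, 11 rose and 15 fell; the counts were 17 and 23 with a trended and robust prior and 93 and 57 with array weights, 17 rose with arrays centred on their median, and 59 fell with all rows of the table. Leaving out single arrays gave 1 to 41 higher and 3 to 41 lower; the cause was not tested. Granulocyte genes past the threshold numbered 1 to 6 with single arrays left out, and 16 to 24 were higher at an unadjusted p under 0.05. Both counts of granulocyte genes were chosen as results after seeing the data. Whether the replicate numbers, and the matching numbers in the sample codes, mark shared experiments is not stated, so the samples were not treated as paired. Same-numbered arrays correlated at 0.10, -0.004 and 0.27 in their deviations from the group means, and differently numbered arrays at -0.25 to 0.13. With 3 arrays per genotype these values cannot decide whether the samples are paired. With the replicate number as a block, 8 probe sets rose and 11 fell and 0 members passed; Cebpe gave an unadjusted p of 0.0125 and a limma adjusted p of 0.318.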

Other observations

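Trib2, a pseudokinase known to promote the breakdown of C/EBP alpha, measured 10.76, 10.97 and 10.98 in KO and 10.56, 7.85 and 10.33 in WT replicates 1, 2 and 3. WT replicate 2 was thus over 2 log2 units below every other array, and all KO values were above all WT values. The difference of 1.32 (SE 0.61) did not pass (limma adjusted p = 0.575), and Trib2 is named after its values were seen. Cebpa RNA measured 7.42 in the same array, the highest of the 6 values, within a total range of 0.34 log2 units. KO replicate 1 was next, at 7.33. Cebpb, Cebpd, Cebpe, Csf1r and Csf3r were also highest among the WT arrays in WT replicate 2. A link between Trib2, which acts on the protein, and Cebpa RNA would rest on 1 array and was not tested. WT replicate 2 is also the array with the low Xist and high Uty values.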
